A study of Mus musculus with 18 samples.

Results

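Timp1 and Timp4 encode tissue inhibitors of metalloproteinases, and their levels were examined in whole aortas of mice in a model of abdominal aortic aneurysm (AAA). Members were all probes that the study's supplementary gene lists pair with these symbols: 1 probe for Timp1 and 1 for Timp4, of 46624 probes on the array, so 2 of the 1340 named genes among the 21434 probes tested. The study had listed both genes as different in AAA against no AAA and in AAA against saline, on these same arrays, so the differences given here are not independent evidence of direction. Timp2 and Timp3, the other inhibitors of the family, have no named probe and were not analysed here.

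The inhibitors of this family are small secreted proteins that bind the active site of matrix metalloproteinases and block it. The metalloproteinases cut collagen, elastin and other components of the aortic wall, and breakdown of elastin and collagen is a known feature of aneurysms. Timp1 is readily induced by inflammatory cytokines, growth factors and injury, and is made by many cell types, among them fibroblasts, smooth muscle cells and macrophages. Timp4 has a narrower expression, with heart, skeletal muscle, blood vessels and fat among its known sites.

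Each array held RNA from the whole aorta, arch to iliac bifurcation, of 1 male ApoE-/- mouse, a strain that lacks apolipoprotein E and has high blood cholesterol. The AAA group (n = 5) and the no AAA group (n = 7) had both received angiotensin II, a peptide that raises blood pressure, at 1.44 µg/kg/min for 4 weeks from an implanted minipump, starting at 13 to 14 weeks of age. They differed in whether an aneurysm had formed. The saline group (n = 6) carried the same genotype, sex and age and received saline for 4 weeks. RNA was not pooled, and RNA integrity numbers lay between 7.5 and 8.1 by the labels. The study's methods give a lower minimum for all of its samples. The infused groups were defined by outcome, so the first comparison contrasts mice that had the same treatment.

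An AAA array detected 20057 to 21052 probes, a no AAA array 19438 to 20676 and a saline array 18647 to 19661. The arrays lay on 3 BeadChips (glass slides of 6 arrays): AAA replicates 1 to 5 shared 1 BeadChip with no AAA replicate 7, no AAA replicates 1 to 6 shared the next, and all saline arrays the third. Any difference from saline therefore cannot be told apart from a difference between BeadChips. AAA and no AAA shared a BeadChip only through no AAA replicate 7, so their differences are largely tied to the BeadChip as well. Markers of the tissue were present: Acta2, the smooth muscle actin, was detected in every group. Its log2 level in AAA was lower by 1.12 than in no AAA (limma adjusted p = 0.00262). Set against saline, Acta2 was higher by 1.34 in the no AAA group (limma adjusted p = 0.00011). The AAA group differed from saline by 0.22, which did not pass (limma adjusted p = 0.498). In whole tissue, a change in the number of cells of a type and a change in RNA per cell cannot be told apart.

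The 2 genes lie on different chromosomes, and the stretch just before each gene start is shown because the inhibitors differed in opposite directions. Sequences are from RefSeq promoter windows of build GRCm38.p6, which held both genes. Each line gives the 120 bases before the annotated start, 5′ to 3′ on the gene's strand. For Timp1 these are chrX:20870046-20870165 on the plus strand, and for Timp4 chr6:115252206-115252325 on the minus strand. Capitals mark matches on either strand to an Ets-type motif (CAGGAAG), to the core of a cAMP response element (TGACG) or to a GC box (GGGCGG), motifs bound by Ets, CREB and Sp1 family factors.
Timp1: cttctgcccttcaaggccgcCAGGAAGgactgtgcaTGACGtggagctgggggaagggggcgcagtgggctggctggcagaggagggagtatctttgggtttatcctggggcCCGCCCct
Timp4: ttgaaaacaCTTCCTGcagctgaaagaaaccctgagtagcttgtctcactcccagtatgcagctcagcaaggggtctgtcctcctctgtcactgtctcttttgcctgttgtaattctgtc
The Timp1 stretch was 65.0% G or C, and the Timp4 stretch 48.3%. Past its annotated start, Timp1 held a variant of the AP-1 motif (TGAGTAA) and then another Ets-type motif, both in capitals in the 28 bases at chrX:20870184-20870211 (plus strand).
Timp1 site: tgggtggaTGAGTAAtgcgtcCAGGAAG
The promoter windows, all of the same length, were searched on both strands. They were longer than the stretches shown and ran past the annotated start. Of 27025 such windows, 2.7% held the AP-1 variant, 13.0% the Ets-type motif, 21.0% the cAMP element core and 35.9% the GC box. These shares are for whole windows and not for the stretches shown. The Timp1 window held 3 matches to the Ets-type motif, and the match farthest before the start lies outside the lines shown. The Timp4 window had no match to the AP-1 variant, the cAMP element core or the GC box. Neither gene matched the usual AP-1 motif (TGANTCA), which 7.93% of windows held, or the TATA box (TATAAA), which 14.2% held. These matches describe letters only.

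Timp1 was most abundant in the aortas with aneurysm, with a single exception. Levels are given as log2 of the signal intensity over the array's median signal. They were 7.21, 7.27, 7.65, 4.91 and 7.28 in AAA replicates 1 to 5, against 5.32, 6.29, 6.32, 5.55, 5.17, 5.07 and 4.41 in no AAA replicates 1 to 7 and 4.48, 4.60, 4.17, 4.02, 5.63 and 4.30 in saline replicates 1 to 6. AAA replicates 1, 2, 3 and 5 lay above every no AAA and saline array. AAA replicate 4 lay 2.45 below the mean of the other 4, a 5.45-fold lower signal, and was below 6 of the 7 no AAA arrays and 1 of the 6 saline arrays. The probe was read from 49 to 81 beads per array, and its bead error was 2.93 to 4.96% of the signal, which is 0.0423 to 0.0715 on the log2 scale and far below the spread between mice.

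**Figure D1:**
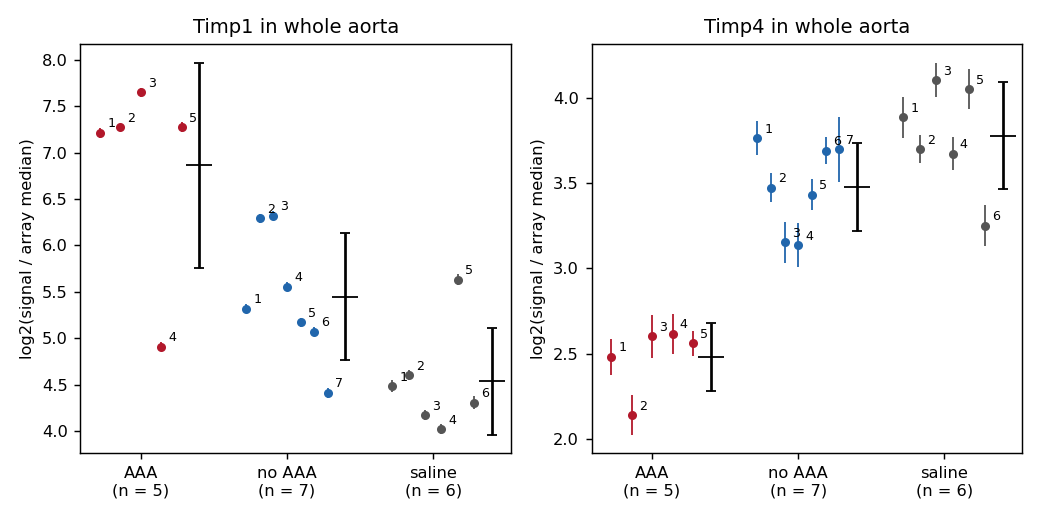
Level of Timp1 (left) and Timp4 (right) as log2 of signal over array median, for each aorta in AAA (n = 5), no AAA (n = 7) and saline (n = 6). Points carry replicate numbers and bead error bars, and black bars are the group mean ± SD. For Timp1, AAA replicate 4 lies at 4.91 and the other AAA arrays between 7.21 and 7.65. For Timp4, all AAA arrays lie below all others.

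The mean Timp1 level was 6.87 ± 1.11 among AAA aortas (SD, n = 5), 5.45 ± 0.68 among no AAA aortas (n = 7) and 4.53 ± 0.58 among saline aortas (n = 6). In AAA it exceeded no AAA by 1.42 (SE 0.41, 2.67-fold, adjusted p = 0.0205), by a moderated linear model in limma over all 21434 probes with Benjamini-Hochberg adjustment. Of all tested probes 10.8% were called higher in that comparison at an adjusted p under 0.05. The call turned on single arrays: the adjusted p was 0.0537 without AAA replicate 1 and 0.0718 without AAA replicate 3, and without AAA replicate 4 the difference was 1.91 with an adjusted p of 0.000411. Leaving out any other array kept the call. With the BeadChip as a block, where the comparison rests on no AAA replicate 7 alone, the difference was 2.46 and the adjusted p 0.0689.

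Against saline, Timp1 was 2.33 higher in AAA (SE 0.43, 5.03-fold, adjusted p = 0.000276), in a comparison in which 30.5% of probes were called higher. The call held when each array was left out, with differences from 2.13 to 2.82. In no AAA against saline, where 35.0% of probes were called higher, Timp1 differed by 0.91 (SE 0.39) and did not pass the test (adjusted p = 0.0632). These groups overlapped. Saline replicate 5, at 5.63, was above 5 of the 7 no AAA arrays, and without it the difference was 1.13 with an adjusted p of 0.0272. The difference also passed without no AAA replicate 7 (1.09, adjusted p = 0.0301) and without AAA replicate 4, which enters through the shared estimate of the spread (0.91, adjusted p = 0.0133).

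Timp1 varied more between mice of 1 group than most probes. Its SD among AAA arrays was 1.11, against a median of 0.206 over the tested probes, and 0.588% of probes had a larger one. In no AAA the SD was 0.68, with 0.751% of probes above it, and in saline 0.58, with 1.77% above it. Without AAA replicate 4 the SD in AAA was 0.20 (n = 4).

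Timp4 differed the other way and separated the aneurysm arrays completely. Its levels were 2.48, 2.14, 2.60, 2.62 and 2.56 in AAA replicates 1 to 5, against 3.77, 3.47, 3.15, 3.14, 3.43, 3.69 and 3.70 in no AAA replicates 1 to 7 and 3.89, 3.70, 4.11, 3.67, 4.05 and 3.25 in saline replicates 1 to 6. Every AAA array, replicate 4 included, lay below every no AAA and saline array, and the other 2 groups overlapped. All AAA arrays lying below all no AAA arrays held for 2.39% of tested probes, and lying below all saline arrays for 5.24%. The Timp4 probe was read from fewer beads, 11 to 28 per array, and its bead error was 5.13 to 13.2% of the signal, at most 0.190 on the log2 scale. The largest error, on no AAA replicate 7, came with 11 beads.

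The mean Timp4 level was 2.48 ± 0.20 among AAA aortas, 3.48 ± 0.26 among no AAA aortas and 3.78 ± 0.31 among saline aortas (SD, n = 5, 7 and 6). The AAA group was lower by 1.0 than no AAA (SE 0.15, limma adjusted p = 0.000361), with 8.46% of probes called lower. It was lower by 1.30 than saline (SE 0.15, adjusted p = 5.44e-06), with 9.22% of probes called lower. As folds, the AAA level was 2.0-fold lower than no AAA and 2.46-fold lower than saline. Both calls held with each array left out and under every other setting run, with adjusted p between 0.000192 and 0.0174 for AAA against no AAA. The difference between no AAA and saline was -0.30 (SE 0.14, adjusted p = 0.0879) and did not pass, in a comparison in which 10.1% of probes were called lower. It passed without saline replicate 6 (-0.41, adjusted p = 0.0172), and with quantile normalization (-0.49, adjusted p = 0.01).

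Each gene was also tested alone. An exact two-sided permutation test of the difference in means gave p = 0.0278 for Timp1 and p = 0.00253 for Timp4 in AAA against no AAA, the second being the smallest that 792 arrangements allow. In AAA against saline the exact permutation p was 0.00866 for Timp1 and 0.00433, the smallest possible, for Timp4. In no AAA against saline it was 0.0291 for Timp1 and 0.0828 for Timp4.

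Both inhibitors were also compared within each array. The level of Timp1 minus that of Timp4 on the same array averaged 4.39 ± 1.19 for AAA arrays, 1.97 ± 0.87 for no AAA arrays and 0.75 ± 0.54 for saline arrays (SD, log2 scale, no test made). Since the probes differ in binding, only the differences between groups of this quantity can be read. AAA arrays spanned 2.29 to 5.13, no AAA arrays 0.71 to 3.17 and saline arrays 0.06 to 1.58, and AAA replicate 4, at 2.29, was the AAA array that fell within the no AAA range. Timp4 alone separated AAA from the other groups, and this quantity did not. Across the 18 arrays the Pearson correlation of Timp1 with Timp4 was -0.747, and -0.188 after the group means were subtracted; these are descriptions over arrays that share BeadChips and scaling.

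**Figure D2:**
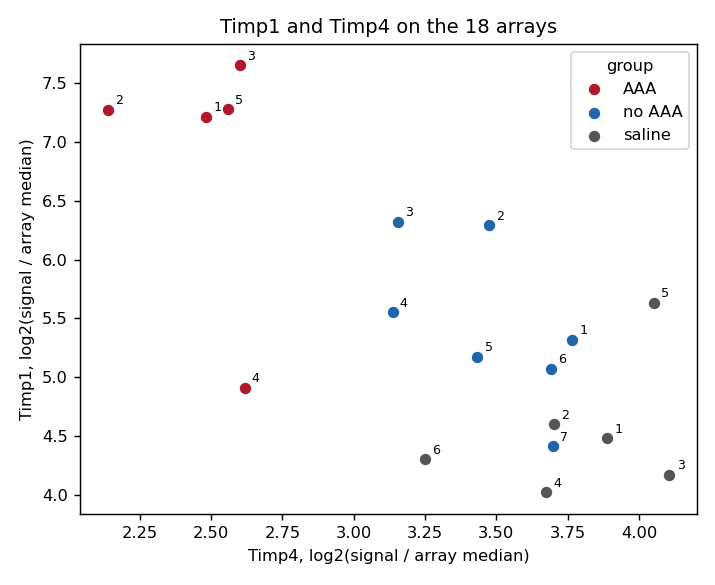
Timp1 (vertical) against Timp4 (horizontal), both log2 of signal over array median, for the 18 arrays, coloured by group and numbered by replicate. AAA arrays lie at the left with Timp4 between 2.14 and 2.62, and AAA replicate 4 lies below the other 4 in Timp1.

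These inhibitors bind the matrix metalloproteinases. Of 23 matrix metalloproteinase genes listed, 7 had a named, tested probe, and such probes are named because the study listed them as different between some of its groups, so their counts describe these genes and not the family. In AAA against no AAA, where 10.8% of all probes were called higher, 5 of the 7 were higher, 0 lower and 2 not called, with a median difference of 1.23, against -0.01 over all tested probes. By the methods' test, an unequal-variance test with the same adjustment, 1 of the 7 passed. In AAA against saline, where 30.5% of all probes were called higher, all 7 were higher, with a median of 1.64 against 0.13 over all tested probes. In no AAA against saline, where 35.0% of all probes were called higher, 4 were higher and 3 not called, with a median of 0.77 against 0.15.

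Mmp13, a collagenase, differed most in AAA against no AAA among the 7 (2.68, SE 0.48, adjusted p = 0.000906). Mmp9, a gelatinase of neutrophils and macrophages, was higher by 1.71 (SE 0.34, adjusted p = 0.00179). Mmp2, a gelatinase of fibroblasts and smooth muscle, and Mmp14, the membrane-bound enzyme that activates it together with Timp2, were higher by 1.33 (SE 0.19) and 1.23 (SE 0.18), each with an adjusted p of 0.000313. Mmp3, stromelysin, was higher by 0.63 (SE 0.17, adjusted p = 0.0149). Mmp12, the macrophage elastase, differed by 1.12 (SE 0.40, adjusted p = 0.0531) and Mmp11 by 0.43 (SE 0.19, adjusted p = 0.124), which did not pass. With the BeadChip as a fixed block, which leaves no AAA replicate 7 as the only array on the same BeadChip as AAA, Mmp2 and Mmp9 passed, with adjusted p of 0.0192 and 0.0432. With it as a random block 5 of the 7 passed. Without AAA replicate 4, 6 passed, Mmp12 among them (1.37, adjusted p = 0.0195).

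Against the change in Timp1, the metalloproteinases differed in both directions. In AAA against no AAA, the level of each Mmp minus Timp1 on the same array differed by 1.27 for Mmp13 and 0.30 for Mmp9, by -0.09 for Mmp2 and -0.19 for Mmp14, and by -0.30, -0.79 and -0.98 for Mmp12, Mmp3 and Mmp11. Thus, 2 of the 7 had a larger difference than Timp1 and 5 a smaller one. Without AAA replicate 4 the values were -0.02 for Mmp9, -0.49 for Mmp2 and -0.57 for Mmp14, and only Mmp13 (1.30) of the 7 exceeded Timp1. In AAA against saline, Mmp13 (1.44) and Mmp12 (0.67) exceeded Timp1, and did so without AAA replicate 4 (1.46 and 0.43). No test was made of these values.

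**Figure D3:**
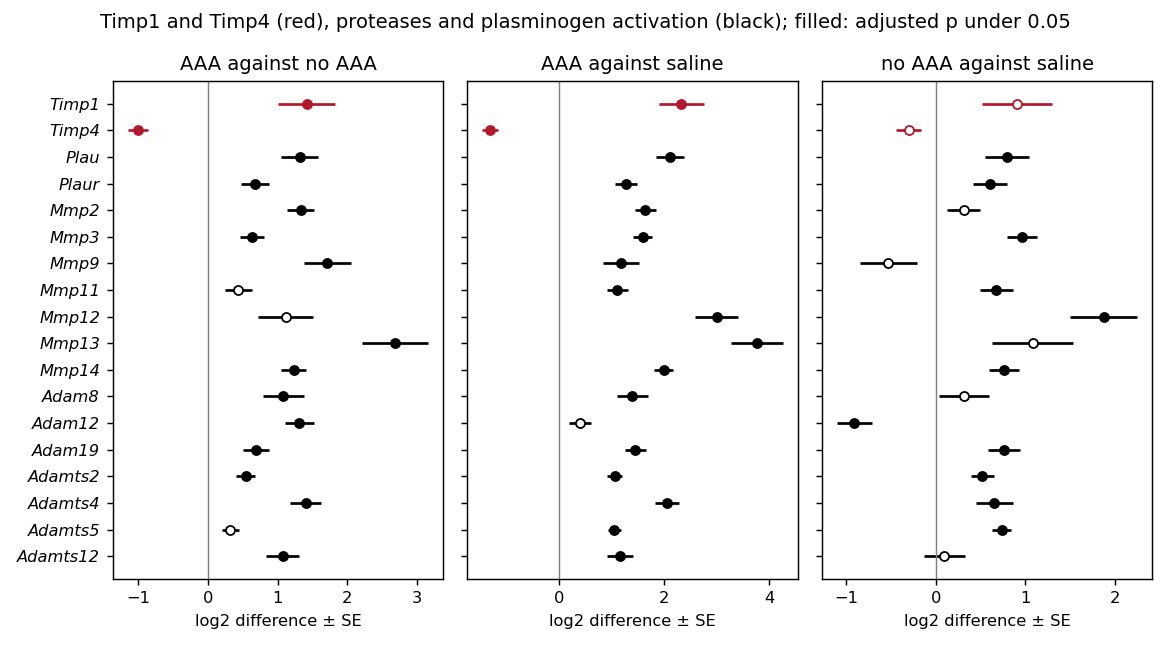
Difference on the log2 scale ± SE from the limma fit for Timp1 and Timp4 (red) and for listed proteases and genes of plasminogen activation (black), in AAA against no AAA (left), AAA against saline (middle) and no AAA against saline (right). Filled points passed an adjusted p of 0.05. Timp4 is the only gene plotted below 0 in the first 2 panels, at -1.0 and -1.30.

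ADAM and ADAMTS proteases, which shed membrane proteins and cut proteoglycans and which some of these inhibitors also bind, gave 7 named, tested genes of 28. These genes too were named because the study listed them as different between some groups. In AAA against no AAA, where 10.8% of all probes were called higher, 6 were higher and 1 was not called. The median was 1.07, against -0.01 over all tested probes. The largest differences were those of Adamts4, an aggrecanase that cuts versican (1.40, SE 0.22, adjusted p = 0.000449) and Adam12 (1.31, SE 0.20, adjusted p = 0.000449). In AAA against saline, where 30.5% of all probes were called higher, 6 of 7 were higher and Adam12 was not called (0.40, adjusted p = 0.138). In no AAA against saline, 35.0% of all probes were called higher and 10.1% lower. There, 4 of the 7 were higher and Adam12 was lower (-0.91, adjusted p = 0.00106).

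The plasminogen system, which activates several metalloproteinases, had named probes for Plau, the urokinase, and Plaur, its receptor. Plau in AAA against no AAA was higher by 1.32 (SE 0.26, adjusted p = 0.00196) and Plaur by 0.67 (SE 0.20, adjusted p = 0.0253). In AAA against saline they were higher by 2.11 (adjusted p = 9.65e-06) and 1.28 (adjusted p = 0.000103). With Timp1 and Timp4 these made 4 of the 17 listed inhibitors and activators with a named probe, and Timp4 was the only one of the 4 that was lower in AAA in either comparison.

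Of 14 cytokines and growth factors known to induce Timp1, 4 had a named, tested probe. Il1b, an inflammatory cytokine, was higher in AAA against no AAA by 1.99 (SE 0.45, adjusted p = 0.00463) and Il6 by 1.38 (SE 0.34, adjusted p = 0.00820). Tgfb2 was lower by 0.53 (SE 0.16, adjusted p = 0.0273), and Tgfb3 was not called (-0.17, adjusted p = 0.372). In AAA against saline, where 30.5% of all probes were called higher, all 4 were higher, with a median of 1.40. Il6 was detected on all 5 AAA arrays, 3 of 7 no AAA arrays and 0 of 6 saline arrays. Il1b was detected on all AAA and no AAA arrays and 4 of 6 saline arrays. The lower levels of both thus lay near background. In no AAA against saline Tgfb2 (1.25) and Tgfb3 (1.00) were higher, and Il6 and Il1b did not pass.

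AAA replicate 4 was low for several of these genes as well as for Timp1. Plau was 2.94 in it and 4.08 to 5.02 in the other AAA arrays, and Plaur was 1.89 in it and 2.89 to 3.36 in the others. Il6 was 0.19 in it and 1.21 to 3.10 in the others. It was the lowest of the 5 AAA arrays for 18 of 20 macrophage markers, 7 of 11 fibroblast and matrix markers, 0 of 6 smooth muscle markers and 0 of 17 white fat markers, and for 30.4% of all tested probes. Its Timp4 level, at 2.62, was the highest of the AAA arrays.

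The named genes whose level most resembled that of Timp1 over the 18 arrays were, of 1339 compared, Fxyd5 (Pearson r = 0.963), a regulator of the sodium pump and of cell adhesion, Tpx2 (0.961), a spindle protein, Ccl2 (0.954), the chemokine for monocytes, Serpina3n (0.943), a secreted protease inhibitor, and Ccl4 (0.940), another chemokine. AAA replicate 4 stood below the other AAA arrays for each of the 5: Fxyd5 was 4.69 in it and 5.90 to 6.31 in the others, and Ccl4 2.10 in it and 3.81 to 5.08 in the others. Without that array, r lay between 0.945 and 0.964 for these 5 genes. After subtraction of the group means the 5 highest were Fxyd5 (0.903), Tpx2 (0.899), Fcgr1 (0.897), an Fc receptor of macrophages, Cdkn3 (0.889), a cell cycle phosphatase, and Sirpb1a (0.885). The arrays of 1 group share a BeadChip for the most part and all share the scaling, and r is given with no test.

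**Figure D4:**
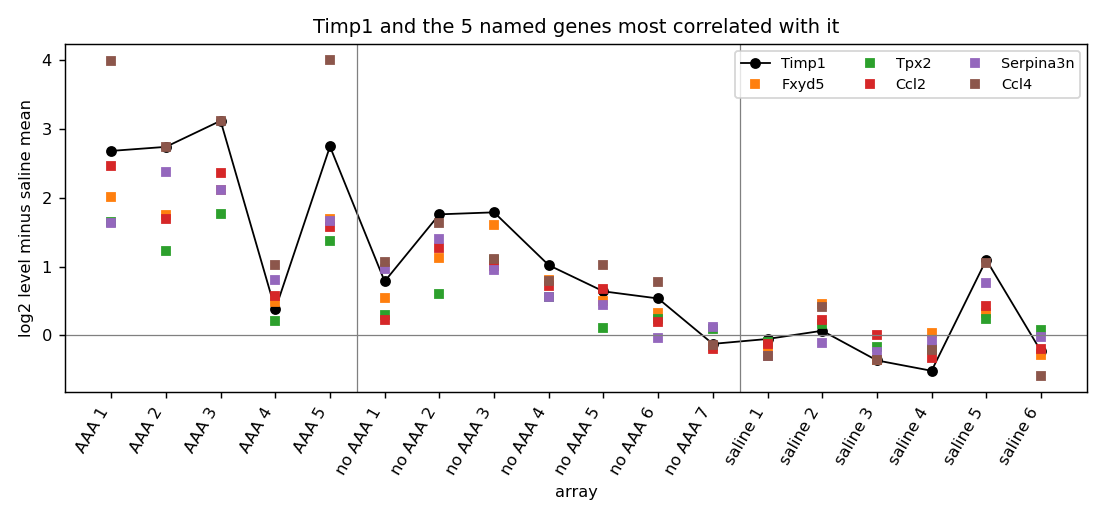
Level of Timp1 (black line) and of its 5 most correlated named genes (squares) on each array, as the log2 level minus the gene's mean in saline, with AAA, no AAA and saline arrays from left to right. In AAA replicate 4 all 6 genes lie below the other AAA arrays, and in saline replicate 5 Timp1 and Ccl4 lie highest.

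For Timp4 the most similar named genes were Fam107a (r = 0.891), Gk (0.849), the glycerol kinase, 2 genes known in the files only as LOC269859 (0.849) and LOC226017 (0.842), and mt-Nd4l (0.821), a mitochondrial subunit of complex I. Fam107a was lower in AAA by 1.57 than no AAA. After subtraction of the group means, Etfdh (0.794), Pde3b (0.775), Echs1 (0.773) and Acadm (0.769) were among the 5 highest. Etfdh, Echs1 and Acadm serve fatty acid oxidation, and Pde3b is a phosphodiesterase of fat cells. None of these 4 was among the 5 over 18 arrays. In AAA against no AAA, where Timp4 was lower by 1.0, these 4 differed by -0.19 to 0.29. In AAA against saline, where Timp4 was lower by 1.30, they were lower as well, with differences of -1.55 to -1.05. In no AAA against saline, where Timp4 differed by -0.30, they differed by -1.445 to -1.176.

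Markers of several cell types moved with the groups, again from named probes only. Of 20 macrophage markers, 19 were higher in AAA against no AAA, where 10.8% of all probes were called higher. Their summed signal over median was 862 to 2298 for AAA arrays, 504 to 895 for no AAA arrays and 290 to 546 for saline arrays. Fibroblast and matrix markers were higher for 8 of 11, and their sums, in the same order of groups, were 844 to 1446, 487 to 794 and 292 to 433. Neutrophil markers were higher for 3 of 4, with sums of 25.2 to 89.8, 5.60 to 40.9 and 13.8 to 79.5, and lymphocyte markers for 4 of 6, with sums of 116 to 496, 21.6 to 53.9 and 22.5 to 636. Against saline, where 30.5% of all probes were called higher in AAA, all 20 macrophage and all 11 fibroblast and matrix markers were higher. Of the neutrophil markers 1 of 4 was higher, and of the lymphocyte markers 2 of 6. In no AAA against saline, Timp1 differed by 0.91 and was not called, and 35.0% of all probes were called higher and 10.1% lower. There, fibroblast and matrix markers were higher for 9 of 11 (median difference 0.84) and macrophage markers for 11 of 20 (0.58). Of the neutrophil markers 0 of 4 were called (median -0.82), and of the 6 lymphocyte markers 1 was higher and 1 lower (median -0.63). AAA replicate 4, the lowest AAA array for Timp1, had the lowest macrophage (862), neutrophil (25.2) and fibroblast and matrix (844) sums of its group. Its lymphocyte sum was 410. The part of these markers in the Timp1 differences was not tested. The neutrophil sums of saline replicates 5 and 2 were 79.5 and 75, with Timp1 at 5.63 and 4.60.

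Of 19 smooth muscle markers listed, 6 had a named, tested probe, named because the study listed it as different between some groups. All 6 were lower in AAA against no AAA, where 8.46% of all probes were called lower, so this count describes these genes only. Their sums were 47.9 to 107 for AAA arrays, 150 to 186 for no AAA arrays and 60.6 to 86.0 for saline arrays. None of the 6 was called in AAA against saline, where Timp4 was lower by 1.30. White fat markers were lower in AAA than in saline for 17 of 17 genes, where 9.22% of all probes were called lower. Their sums were 858 to 1548 for AAA arrays, 483 to 1337 for no AAA arrays and 2271 to 3387 for saline arrays. Against no AAA, white fat markers were higher in AAA for 2 of 17 and lower for 0, with a median of 0.46. Of all probes, 10.8% were called higher and 8.46% lower in that comparison. Brown fat markers were lower in AAA than in saline for 14 of 14, with sums of 318 to 697, 204 to 945 and 1587 to 2396, and not called for any of the 14 in AAA against no AAA. Cidea, through the same probe, counts in both fat lists, so the 2 lists are not separate sets of genes. The named smooth muscle markers were thus lower in AAA against no AAA, and the named fat markers in AAA against saline. The fat markers too were named because the study listed them as different between some groups on these same arrays. Which named markers differ in which comparison is therefore partly set by the naming, and nothing on Timp4 is concluded from it. In no AAA against saline 10.1% of all probes were called lower and 35.0% higher. There, white fat markers were lower for 16 of 17 and smooth muscle markers higher for 6 of 6, while Timp4 was not called. Their part in the Timp4 differences was not tested.

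**Figure D5:**
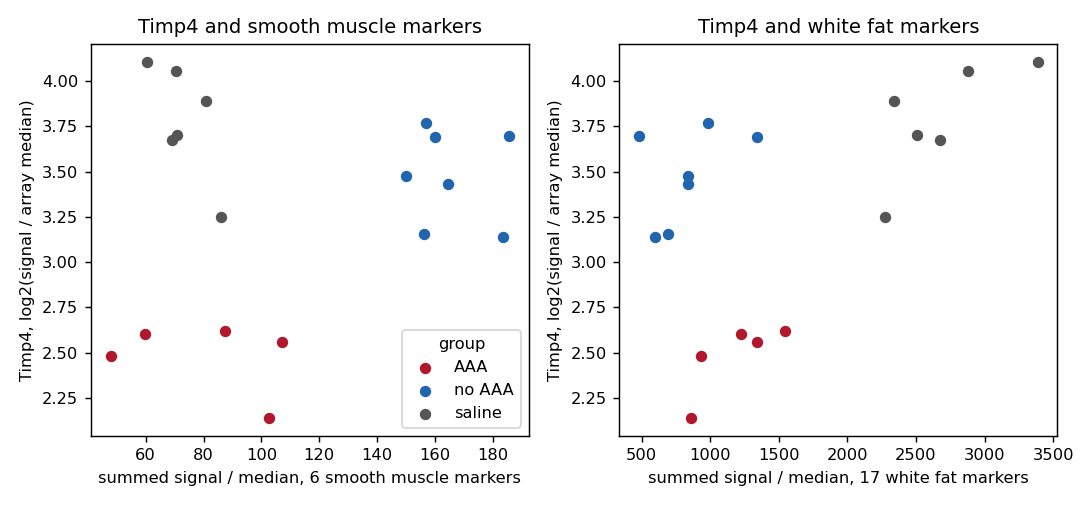
Timp4 level (vertical, log2 of signal over array median) against the summed signal over median of 6 smooth muscle markers (left) and 17 white fat markers (right), for each array. AAA arrays lie lowest in Timp4 in both panels. They overlap saline in the smooth muscle sum and no AAA in the white fat sum.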

How the data were processed

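The data were Illumina Mouse-6 arrays of 18 aortas. The authors used BeadStudio 2, per the labels. For each array and probe they deposited an average signal intensity, the detection score, the bead error and the bead number, without normalisation. The deposited detection score was taken as detected over 0.95. Another 72 columns of per-array values were left aside. The deposited ratio matrix was set aside because 12 of its 18 columns hold another array's values. Between the 2 files, AAA 1 to 5 were exchanged with no AAA 1 to 5, and no AAA 6 with no AAA 7. The raw table's groups were used, since the sample descriptions name its columns and the study's listed directions follow them. The study's own fold changes and p-values were not used.

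Signals were divided by the array median and put on the log2 scale, with no floor or pseudocount. Lines of bacterial controls (14) were left out and 9 probe IDs on several lines were averaged. Testing covered probes detected on 5 or more arrays and used limma 3.58.1 under R 4.3.3 (statmod 1.5.0; 3 group means, eBayes with trend), and p-values were adjusted over all 21434 probes by Benjamini-Hochberg. The fit was tested on simulated data. Permutation tests, correlations and figures used Python 3.11.15 with scipy 1.17.1, numpy 2.4.6, pandas 2.3.3 and matplotlib 3.10.9.

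Names came from the study's supplementary lists, which cover 1549 probes. Named genes were Timp1, Timp4, genes of the protease, inhibitor and inducer lists with a named, tested probe (the brightest per gene), and, for each inhibitor, the 5 most correlated named genes over 18 arrays and the 5 after subtraction of group means. Of these, 1 gene is not reported here. Marker lists were treated likewise. The members and lists were chosen with earlier results of these data known. Alternatives covered scaling, background correction, filter, floor, test, array weights, BeadChip, replicate block and leaving out each array. The number of arrays limits the precision. The labels give 1 mouse per array.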

Additional observations from a re-analysis of the deposited data

Results flagged for a closer look

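In groups of 5 to 7 arrays, 1 array was set apart from the rest of its group in 4 of 66 groups examined (22 genes). Chance alone sets 1 apart in about 1 in 20 groups. What set each of these arrays apart was not tested. Timp1 in AAA replicate 4 was 4.91, against 7.21 to 7.65 in the other AAA arrays. Timp1 in saline replicate 5 was 5.63, against 4.02 to 4.60 in the other saline arrays. Timp4 in AAA replicate 2 was 2.14, against 2.48 to 2.62 in the other AAA arrays. Tgfb3 in AAA replicate 1 was 4.76, against 4.53 to 4.59 in the other AAA arrays. Of the 21434 tested probes, AAA replicate 4 was set apart as the lowest AAA array for 527, and each of the other 4 AAA arrays for 41 to 82.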

How the results depend on the processing

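The higher Timp1 and lower Timp4 in AAA against saline, and the lower Timp4 in AAA against no AAA, kept direction and call under every alternative. Timp1 in AAA against no AAA was not called with the BeadChip as a fixed block (2.46), which rests on no AAA replicate 7 alone. By the methods' t-test (1.42) it was not called after adjustment (adjusted p = 0.183). The study used that t-test without adjustment, and the unadjusted t-test p was 0.0432. Over fits leaving out 1 array the Timp1 difference lay between 1.22 and 1.91. Timp1 in no AAA against saline was called with normexp background correction (0.99), array weights (1.02) and only the 2 groups compared (0.91). The exact permutation test, which has no adjustment, gave p = 0.0291 for that difference (0.91). Over fits leaving out 1 array it lay between 0.77 and 1.13. Timp4 in that comparison was called with quantile normalization (-0.49), 75th percentile scaling (-0.41) and array weights (-0.36), and over fits leaving out 1 array lay between -0.41 and -0.23. Under the replicate block (replicate number as a fixed term), Timp1 in no AAA against saline was 1.09 (adjusted p = 0.0207) and no other call of the inhibitors changed; same-numbered arrays did not deviate together (r over 0.1 in 4 of 16 pairs, from -0.188 to 0.293). No value could be had with a fixed BeadChip block against saline.

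The number of metalloproteinase genes higher in AAA against no AAA was 5. It was lower with the fixed BeadChip block, and 1 by the methods' t-test after an adjustment that the study did not make. Both settings were chosen for this count after seeing the data. Of the 5 genes most like each inhibitor over 18 arrays, 4 stayed among the 5 for Timp1 and 4 for Timp4 after quantile normalization. The median of all tested probes was 0.134 above 0 in AAA against saline with median scaling, 0.015 with quantile normalization and -0.027 with 75th percentile scaling, and the share of calls that were higher was 76.8, 52.8 and 46.7%. In AAA against no AAA that share was 56.0, 47.2 and 41.8%, and in no AAA against saline 77.7, 59.9 and 57.2%.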
